A study of Mus musculus with 4 samples.

Results

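The genes described here encode the factors that carry messenger RNA through initiation, elongation and termination of translation, together with the kinases, binding proteins and enzymes named after those factors. They were taken from the deposited table by symbol: every entry that begins with Eif and a digit or with Eef1 or Eef2, plus Etf1, Gspt1, Pdcd4 and Pabpc1. This gave 71 of 20555 genes, of which 66 are annotated as protein coding and 5 as processed pseudogenes. To ask what MYC expression does to PyMT tumours, whole mammary tumour tissue was profiled by poly(A) RNA sequencing in 2 groups of 2 libraries each. In MYC-PyMT, genotype S100a8-creRosa26-LSL-MYCPyMT, a Cre recombinase under S100a8, which neutrophils express strongly, was combined with PyMT and a MYC allele at Rosa26 behind a loxP-flanked stop (LSL). Control-PyMT carried the PyMT genotype alone, the polyoma virus middle T antigen that drives mammary tumours and that both groups share. Age, sex and the species of the MYC sequence are not stated in the labels, and whether replicates are different animals is not stated either, so p-values measure how far these libraries differ, and part of that may be technical.

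Translation begins when the cap-binding complex eIF4F recruits a small ribosomal subunit that already carries eIF3, eIF1, eIF1A, eIF5 and the initiator tRNA held by eIF2 and GTP. eIF2B reloads eIF2 with GTP, and kinases that phosphorylate the alpha subunit of eIF2 block that step. Elongation then runs on eEF1A, which delivers tRNAs, on eEF2, which moves the ribosome, and on eIF5A, which eases peptide bond formation at slow sequences. MYC is known to raise transcription of ribosome and translation genes, and EIF4E is among its described targets.

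Values are scaled counts, which are whole reads divided by a size factor for each library and are not divided by gene length, so they were compared between groups for the same gene. Library values are given for replicate 1 and then replicate 2. Libraries held 31783846 to 34190913 reads. Scaled counts of all genes summed to 34408602 and 34928670 in MYC-PyMT, against 30155556 and 27926574 in Control-PyMT. Sums over a list are therefore not shares of a library. The 10 luminal epithelium markers were all detected, and summed to 180978 and 218626 scaled counts in MYC-PyMT, against 436008 and 433243 in Control-PyMT. Of these, 4 fell (Csn3, Prlr, Cdh1 and Krt19), none rose and 6 did not pass. Csn3 made up most of the sums in Control-PyMT. It had 79521 and 112294.5 scaled counts in MYC-PyMT, against 299790 and 300770 in Control-PyMT. The endogenous mouse Myc gene had 3215 and 2815 scaled counts in MYC-PyMT, against 1832 and 2819.9 in Control-PyMT (log2 change 0.40, SE 0.23, limma adjusted p = 0.172), and reads of the transgene need not be among them. Summed myoepithelium markers stood at 10397 and 22480.0 scaled counts in MYC-PyMT, against 46098 and 46642 in Control-PyMT. Of these 8 markers 6 fell, Krt5 did not pass and Krt14 rose (log2 change 1.24, limma adjusted p = 0.0369). Krt14 had 4828 and 13476 scaled counts in MYC-PyMT, against 4673 and 2481 in Control-PyMT. Summed leukocyte markers stood at 2791 and 2696 scaled counts in MYC-PyMT, against 5018 and 5089 in Control-PyMT. Of 9 leukocyte markers tested, 6 fell and 3 did not pass. All 5 keratinocyte markers tested fell, with sums of 121 and 153 scaled counts in MYC-PyMT, against 2385 and 1153 in Control-PyMT. Of 6 endothelium markers 3 rose and 3 did not pass, with sums of 4165 and 5085 scaled counts in MYC-PyMT, against 2327 and 3038 in Control-PyMT. Of 6 fibroblast markers Col1a1 rose, Dcn and Pdgfra fell and 3 did not pass. Of 6 adipocyte markers Fabp4 rose, Lep fell and 4 did not pass. Among all genes tested, 23.3% rose and 24.6% fell. S100a8, whose promoter drives Cre, had 1564 and 2524 scaled counts in MYC-PyMT, against 2338 and 639 in Control-PyMT. The part of these cell types in the changes of translation factors was not tested. In bulk tissue, fewer cells of a type and less RNA per cell cannot be told apart.

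Translation factor genes were mostly higher in MYC-PyMT tumours. Of the 71 members, 69 reached at least 10 scaled counts in at least 2 libraries and were tested, and 68 of these reached 10 in all 4 libraries, the other being Eef1a2. At a Benjamini-Hochberg adjusted p under 0.05 over all genes (limma), 53 rose, 3 fell and 13 did not pass. Among all 16725 genes tested, 23.3% rose and 24.6% fell, 47.9% in both directions together. The median log2 change was 0.98 over the members and -0.02 over all genes tested. A called rise of at least 2-fold was found for 31 members, and for 14.4% of all genes tested. The groups did not overlap, with MYC-PyMT higher, for 60 members, where 37.0% of all genes tested showed this, and with MYC-PyMT lower for 5 members, against 38.7% of all genes tested. Members took 4.62% and 4.21% of all scaled counts in MYC-PyMT, against 2.98% and 2.66% in Control-PyMT. With Eef1a1, the most abundant of them, left out, the shares were 3.02% and 2.99% in MYC-PyMT, against 1.86% and 1.79% in Control-PyMT.

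Control-PyMT replicate 2 was below Control-PyMT replicate 1 for 57 of the 69 tested members, by a median of -0.24 on the log2 scale, while over all genes tested the median difference was -0.07. The MYC-PyMT libraries differed less on these genes, with replicate 2 minus replicate 1 at a median of 0.05. Omitting Control-PyMT replicate 1 gave the members a median log2 change of 1.09, while omitting Control-PyMT replicate 2 gave 0.85. The median was 0.95 when MYC-PyMT replicate 1 was dropped and 0.94 when MYC-PyMT replicate 2 was dropped. Each such fit has a single library in 1 group. Fewer genes were called higher in each of them over all genes tested as well, so lost calls are not particular to the members. Among the 53 members that rose, 33 kept that call whichever library was left out.

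**Figure D1:**
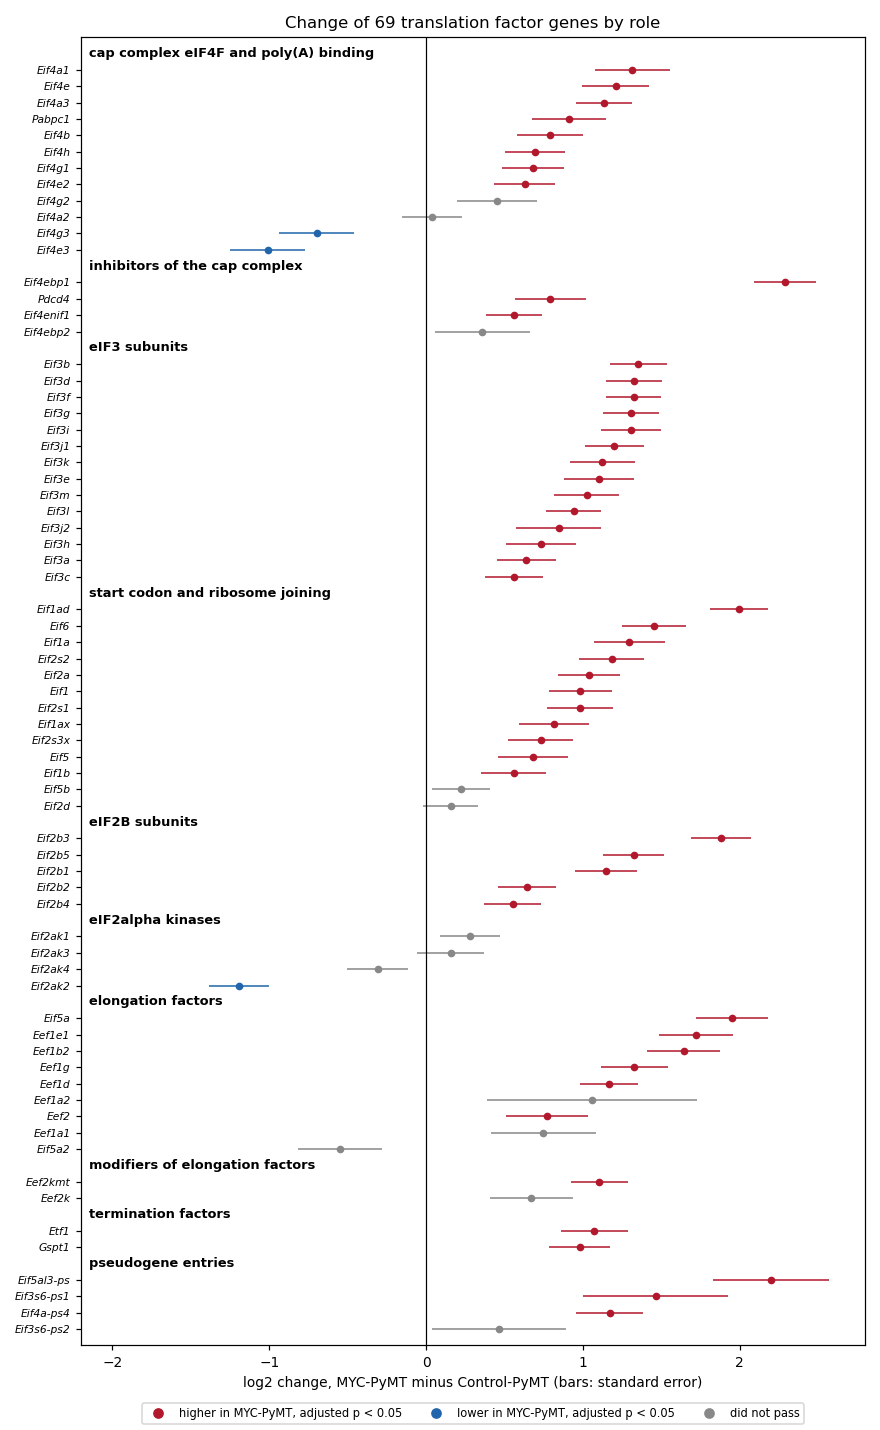
Log2 change (MYC-PyMT minus Control-PyMT, x axis) of the 69 tested members, grouped by role and ordered by size, with bars for the standard error of the limma fit. Most points lie right of 0, all 14 eIF3 subunit genes among them, and Eif2ak2, Eif4e3 and Eif4g3 are the members called lower.

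MYC binds DNA with its partner MAX at the E-box CACGTG, which reads the same on both strands. RefSeq promoter windows (GRCm38.p6, 250 bases before to 50 after an annotated start) were found by symbol for 51 of the 71 members, and 12 of these genes held the E-box in at least 1 window. Among the 38 matched members that rose it was 10 genes, or 26.3%, against 11.1% of the 11565 tested genes with a window and 8.09% of all 27025 genes with a RefSeq window. The log2 changes of those 10 genes ran from 0.56 for Eif1b to 1.95 for Eif5a. Eif1ad, Eef1e1 and Eef1b2, which rose by 2.00, 1.72 and 1.64, held no E-box in their windows. Of the 13 matched members that did not rise, 2 held it, Eef2k and Eif5a2. A match describes the letters of the window and does not show binding. The windows of Eif4e and Eif5a, which rose, are printed whole as examples, and that of Eif5a2 because it holds the E-box although its gene did not rise. For the other 9 genes each E-box is shown with 12 bases on each side. Capitals mark the E-box, and each sequence runs along its gene's strand.
Eif4e, chr3:138527018-138527317 on the plus strand: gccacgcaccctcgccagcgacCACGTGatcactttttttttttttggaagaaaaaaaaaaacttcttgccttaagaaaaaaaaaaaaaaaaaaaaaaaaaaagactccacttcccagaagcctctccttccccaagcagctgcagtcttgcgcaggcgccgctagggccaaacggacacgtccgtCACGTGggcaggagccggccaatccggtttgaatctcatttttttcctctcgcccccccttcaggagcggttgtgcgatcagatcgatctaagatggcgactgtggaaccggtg
Eif5a, chr11:69921337-69921636 on the minus strand: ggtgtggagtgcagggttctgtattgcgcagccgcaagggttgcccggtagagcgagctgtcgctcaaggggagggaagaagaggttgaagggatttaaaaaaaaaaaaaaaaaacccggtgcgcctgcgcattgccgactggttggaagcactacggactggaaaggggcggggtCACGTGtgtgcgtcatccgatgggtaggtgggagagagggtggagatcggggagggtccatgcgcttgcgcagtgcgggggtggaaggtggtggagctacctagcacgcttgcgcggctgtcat
Eif5a2, chr3:28781027-28781326 on the plus strand: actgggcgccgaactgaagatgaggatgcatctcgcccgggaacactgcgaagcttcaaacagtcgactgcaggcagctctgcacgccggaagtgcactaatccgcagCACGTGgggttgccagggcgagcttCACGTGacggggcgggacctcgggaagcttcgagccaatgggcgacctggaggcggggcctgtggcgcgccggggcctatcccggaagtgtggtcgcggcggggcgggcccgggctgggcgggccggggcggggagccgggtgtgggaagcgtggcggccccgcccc
Eif4a1, chr11:69672595-69672624 on the minus strand: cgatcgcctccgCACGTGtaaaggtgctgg
Eif4g1, chr16:20672661-20672690 on the plus strand: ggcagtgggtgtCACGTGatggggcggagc
Eif4g1, chr16:20672730-20672759 on the plus strand: ctctgcgccggtCACGTGgggcgctggctg
Eif4h, chr5:134639488-134639517 on the minus strand: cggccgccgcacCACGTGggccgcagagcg
Eif3a, chr19:60790654-60790683 on the minus strand: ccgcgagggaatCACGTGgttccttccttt
Eif3f, chr7:108934335-108934364 on the plus strand: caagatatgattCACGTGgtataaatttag
Eif3k, chr7:28981915-28981944 on the minus strand: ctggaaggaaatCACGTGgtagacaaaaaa
Eif1b, chr9:120492570-120492599 on the plus strand: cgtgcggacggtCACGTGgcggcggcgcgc
Eef2, chr10:81176576-81176605 on the plus strand: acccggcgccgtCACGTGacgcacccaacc
Eef2k, chr7:120842788-120842817 on the plus strand: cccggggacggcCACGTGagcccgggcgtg
Eif4e has 2 windows: the E-boxes of the printed one began at -228 and -64 counted from its annotated start, which lies inside the gene, while the window at the gene's first annotated start (chr3:138525941-138526240) held none. Eif5a has 6 windows. The annotated start of the printed one lies inside the gene too, and the window at the gene's first annotated start (chr11:69921909-69922208) held no E-box. A further E-box of Eif5a, not printed, began at -178 in the window of another start (chr11:69920581-69920880). Annotated starts of the Eif4g1, Eif1b and Eif4h windows also lie inside the annotated spans of their genes. E-boxes began in Eif4g1 at -54 and 16, in the printed window of Eif5a at -74 and in Eif5a2 at -142 and -117. The single E-box began at -189 in Eif4a1, -96 in Eif4h, 23 in Eif3a, -68 in Eif3f, -44 in Eif3k, -24 in Eif1b, -43 in Eef2 and -31 in Eef2k, with the start base counted as 1.

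Genes of the cap-binding complex rose in part. The 12 members grouped here form or assist eIF4F, bind the poly(A) tail or are relatives of such factors. Of these, 8 rose, 2 fell and 2 did not pass, with a median log2 change of 0.69. Eif4e (ENSMUSG00000028156.12, chromosome 3, 138526179 to 138559696, plus strand, GRCm38), the cap-binding protein itself, had 7096 and 7832 scaled counts in MYC-PyMT, against 3859 and 2692 in Control-PyMT (limma log2 change 1.21, SE 0.21, adjusted p = 0.00134). Eif4a1 (ENSMUSG00000059796.16, chromosome 11, 69666936 to 69672423, minus strand), the RNA helicase that unwinds messenger leaders, had 55514 and 61827 scaled counts in MYC-PyMT, against 28032 and 19788 in Control-PyMT (log2 change 1.31, SE 0.24, adjusted p = 0.00155). In each of these genes the lower MYC-PyMT library lay far above the higher control, and the calls held whichever library was left out.

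Eif4a3, a related helicase that sits in the exon junction complex, had 6803 and 7401 scaled counts in MYC-PyMT, against 3368 and 3094 in Control-PyMT (log2 change 1.14, SE 0.18, adjusted p = 0.000722). Eif4g1, the scaffold that ties cap-binding protein, helicase and eIF3 together, had 21284 and 17399.6 scaled counts in MYC-PyMT, against 11485 and 12513 in Control-PyMT (log2 change 0.68, SE 0.20, adjusted p = 0.0178). Pabpc1, which binds the poly(A) tail and touches the scaffold, had 47110.0 and 34110.1 scaled counts in MYC-PyMT, against 19358 and 23488 in Control-PyMT (log2 change 0.91, SE 0.23, adjusted p = 0.00996). The helicase cofactors Eif4b and Eif4h rose by 0.79 and 0.69 on the log2 scale, and Eif4e2, a weaker cap-binding relative that represses messages, by 0.63. Leaving out some single library ended each of these 5 calls. The log2 change of Eif4g1 was 0.62, adjusted p = 0.0845 without Control-PyMT replicate 1, 0.74, adjusted p = 0.0604 without Control-PyMT replicate 2 and 0.54, adjusted p = 0.226 without MYC-PyMT replicate 1. Without those same libraries that of Pabpc1 was 0.77, adjusted p = 0.101, then 1.05, adjusted p = 0.0563 and 0.68, adjusted p = 0.147. Eif4b and Eif4e2 did not pass without Control-PyMT replicate 2 or either MYC-PyMT library, and Eif4h without either MYC-PyMT library. The ranges of their changes over all omissions were 0.68 to 0.89 for Eif4b, 0.46 to 0.80 for Eif4e2 and 0.62 to 0.77 for Eif4h.

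Other members of the same families went down or did not pass. Eif4e3, a further cap-binding relative, had 254 and 284 scaled counts in MYC-PyMT, against 600.4 and 488 in Control-PyMT (log2 change -1.01, SE 0.24, adjusted p = 0.00641), and the MYC-PyMT libraries lay below both controls. Its annotated span overlaps Gm20696 on the same strand, so reads may be shared between them. Eif4g3, another scaffold protein, had 4988 and 4110.1 scaled counts in MYC-PyMT, against 5854 and 9219 in Control-PyMT (log2 change -0.70, SE 0.24, adjusted p = 0.0347). The control libraries of Eif4g3 differed widely. It did not pass once MYC-PyMT replicate 2 was omitted (log2 -0.56, adjusted p = 0.181), with Control-PyMT replicate 2 omitted (-0.37, adjusted p = 0.191) and with the trend over transcript length removed (-0.23, adjusted p = 0.423). Eif4e3 did not pass with Control-PyMT replicate 1 omitted (log2 -0.86, adjusted p = 0.0602). Eif4a2, the helicase most like Eif4a1, had 13318 and 13697 scaled counts in MYC-PyMT, against 14406 and 12001 in Control-PyMT, with overlapping groups and a log2 change of 0.039 (adjusted p = 0.886). Eif4g2, a scaffold that lacks the cap-protein binding site, had 69711 and 79527 scaled counts in MYC-PyMT, against 64967 and 45621 in Control-PyMT (log2 change 0.45, SE 0.25, adjusted p = 0.170), and it passed once the length trend was removed (log2 0.85, adjusted p = 0.0243).

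**Figure D2:**
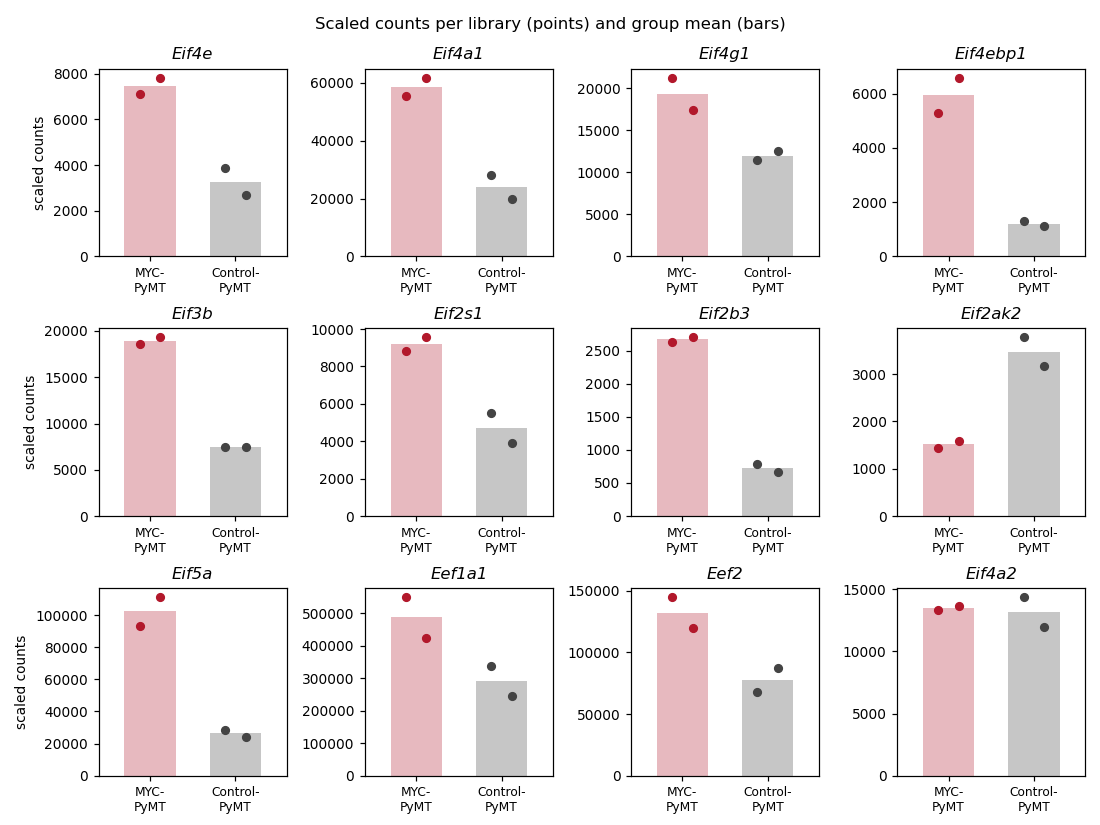
Scaled counts (y axes from 0, scale differing by panel) in each library (points, replicate 1 left of replicate 2) with group means (bars) for 12 members, MYC-PyMT left of Control-PyMT. Eif4ebp1, Eif5a and Eif2b3 show wide gaps between the groups, Eif2ak2 is lower in MYC-PyMT, and the groups overlap for Eif4a2.

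Because some relatives rose while others did not, the balance within pairs was examined in each library as the ratio of scaled counts per kb of annotated exon. The ratio of Eif4a1 to Eif4a2 was 7.51 and 8.13 in MYC-PyMT, against 3.51 and 2.97 in Control-PyMT. Eif4e to Eif4e3 stood at 13.7 and 13.6 in MYC-PyMT, against 3.15 and 2.70 in Control-PyMT. For the scaffolds, Eif4g1 to Eif4g3 was 7.15 and 7.09 in MYC-PyMT, against 3.29 and 2.27 in Control-PyMT. All these ratios were higher in both MYC-PyMT libraries than in either control, whereas Eif4g1 to Eif4g2 overlapped, at 0.404 and 0.290 in MYC-PyMT, against 0.234 and 0.363 in Control-PyMT. The widest shift was that of Eif5a to Eif5a2, at 949.5 and 1072 in MYC-PyMT, against 164 and 193 in Control-PyMT. Eif1ax to Eif1a, near-identical proteins from different chromosomes, moved the other way, at 0.645 and 0.647 in MYC-PyMT, against 0.90 and 0.907 in Control-PyMT, although both genes rose. Smaller shifts without overlap were seen for Eif4e to Eif4e2, at 1.97 and 2.44 in MYC-PyMT, against 1.56 and 1.38 in Control-PyMT, for Eif1 to Eif1b, at 7.34 and 7.82 in MYC-PyMT, against 5.60 and 5.68 in Control-PyMT, and for Eif3j1 to Eif3j2, at 7.38 and 8.68 in MYC-PyMT, against 6.16 and 6.39 in Control-PyMT. An exact test of 2 against 2 libraries cannot reach the threshold, so the ratios are given as a description.

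**Figure D3:**
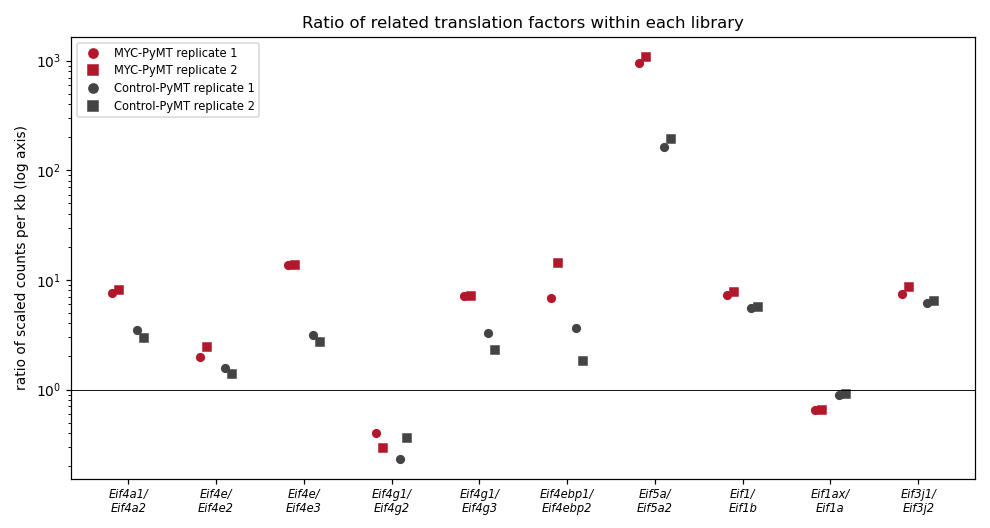
Ratio of scaled counts per kb of exon (log axis) between related members within each library, for MYC-PyMT (red) and Control-PyMT (grey), replicate 1 as circles and replicate 2 as squares. MYC-PyMT points lie above the controls for 8 of the 10 pairs, below for Eif1ax/Eif1a, and overlap for Eif4g1/Eif4g2.

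The largest fitted rise of any member belonged to an inhibitor of the cap complex, and 3 of the 4 inhibitors tested rose, with a median log2 change of 0.68. Eif4ebp1 (ENSMUSG00000031490.5, chromosome 8, 27260329 to 27276674, plus strand), which holds eIF4E away from the scaffold until mTORC1 phosphorylates it, had 5272 and 6590.4 scaled counts in MYC-PyMT, against 1311 and 1109 in Control-PyMT (limma log2 change 2.29, SE 0.20, adjusted p = 2.94e-05). Both MYC-PyMT libraries were several-fold above both controls, and without each library in turn the log2 change stayed within 2.13 to 2.45. Its relative Eif4ebp2 had 2242 and 1346 scaled counts in MYC-PyMT, against 1033 and 1775 in Control-PyMT, with overlapping groups (log2 change 0.36, SE 0.30, adjusted p = 0.355). The ratio of Eif4ebp1 to Eif4ebp2 per kb of exon was 6.81 and 14.2 in MYC-PyMT, against 3.67 and 1.81 in Control-PyMT.

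Eif4ebp3 was too low to be tested, at 4.03 and 4.40 scaled counts in MYC-PyMT, against 11.2 and 9.34 in Control-PyMT, and its span overlaps the annotated gene AC115631.1 on the same strand. Pdcd4, which binds the helicase and keeps it from the scaffold, had 6993 and 4529.8 scaled counts in MYC-PyMT, against 3119.8 and 3384 in Control-PyMT (log2 change 0.79, SE 0.23, adjusted p = 0.0163). The MYC-PyMT libraries of Pdcd4 differed more than the controls did. Pdcd4 did not pass with MYC-PyMT replicate 1 omitted (log2 0.48, adjusted p = 0.240), nor with Control-PyMT replicate 1 (0.73, adjusted p = 0.144) or Control-PyMT replicate 2 omitted (0.85, adjusted p = 0.112). Eif4enif1, which carries eIF4E into the nucleus, had 2965 and 2998 scaled counts in MYC-PyMT, against 2023 and 2019 in Control-PyMT (log2 change 0.56, SE 0.18, adjusted p = 0.0251), with nearly equal libraries inside each group. It did not pass with upper-quartile scaling (log2 0.46, adjusted p = 0.0510), nor with Control-PyMT replicate 2 omitted (0.56, adjusted p = 0.0521) or MYC-PyMT replicate 1 (0.57, adjusted p = 0.153) or MYC-PyMT replicate 2 omitted (0.55, adjusted p = 0.178).

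All 14 genes of eIF3, the large complex that bridges the small subunit and the cap complex, rose, with a median log2 change of 1.11 and a range of 0.56 to 1.35. Summed over the 14, they stood at 177139 and 183731 scaled counts in MYC-PyMT, against 96383 and 81624 in Control-PyMT. As shares of all scaled counts these sums were 0.515% and 0.526% in MYC-PyMT, against 0.320% and 0.292% in Control-PyMT. Subunits b, g and i form a module also found in yeast. Eif3b (ENSMUSG00000056076.13, chromosome 5, 140419328 to 140443360, plus strand) had 18589 and 19337 scaled counts in MYC-PyMT, against 7425 and 7414 in Control-PyMT (log2 change 1.35, SE 0.18, adjusted p = 0.000298). Eif3g and Eif3i rose by 1.31 and 1.31 with standard errors of 0.18 and 0.19. Eif3d, which in human cells can bind the cap of certain messages, had 11400.1 and 12285 scaled counts in MYC-PyMT, against 4828 and 4600.2 in Control-PyMT (log2 change 1.33, SE 0.18, adjusted p = 0.000300). None of the libraries of Eif3b or Eif3d came near the other group.

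The subunits that build the octameric core of mammalian eIF3 spread more widely. Eif3f (ENSMUSG00000031029.6, chromosome 7, 108934417 to 108942951, plus strand) had 12231 and 11747 scaled counts in MYC-PyMT, against 4815 and 4761 in Control-PyMT (log2 change 1.32, SE 0.18, adjusted p = 0.000290). Eif3k, Eif3e, Eif3m and Eif3l rose by 1.12, 1.10, 1.02 and 0.94 on the log2 scale. Lower changes were fitted for Eif3h at 0.73, for Eif3a, the largest subunit, at 0.64, and for Eif3c, which had 11913 and 10566 scaled counts in MYC-PyMT, against 7660.2 and 7548 in Control-PyMT (log2 change 0.56, SE 0.18, adjusted p = 0.0292). The call of each of these genes depended on the libraries used. That of Eif3c was lost whichever library was omitted (log2 0.47 to 0.65) and with upper-quartile scaling (0.46, adjusted p = 0.0555), that of Eif3a without Control-PyMT replicate 2 or either MYC-PyMT library (0.58 to 0.70 over the omissions), and that of Eif3h without the same libraries (0.48 to 0.99). Eif3h also did not pass with the length trend removed (log2 0.40, adjusted p = 0.153).

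The loosely bound subunit j has a pair of genes in the mouse. Eif3j1 had 4155 and 4777 scaled counts in MYC-PyMT, against 2109 and 1779 in Control-PyMT (log2 change 1.20, SE 0.19, adjusted p = 0.000729), and Eif3j2 had 248 and 242 scaled counts in MYC-PyMT, against 151 and 122 in Control-PyMT (log2 change 0.85, SE 0.27, adjusted p = 0.0273). The call of Eif3j2 ended whichever library was omitted (log2 0.70 to 0.99), and reads of near-identical copies may have been split between them. Per kb of exon, mean levels in MYC-PyMT ran from 103 for Eif3j2 to 16257 for Eif3h, and in Control-PyMT from 57.4 to 9917 for the same genes.

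Genes for start codon selection and ribosome joining rose in 11 of 13 cases, where 23.3% of all genes tested rose. For all 13 both MYC-PyMT libraries lay above both controls in scaled counts, as for 37.0% of all genes tested. As a percent of all scaled counts in the library, Eif5b overlapped, at 0.02718 and 0.02449 in MYC-PyMT, against 0.02723 and 0.02559 in Control-PyMT. On that scale Eif2d was lower in both MYC-PyMT libraries, at 0.00947 and 0.00909, against 0.00954 and 0.01037 in Control-PyMT. The others stayed higher in MYC-PyMT. Eif1ad (ENSMUSG00000024841.7, chromosome 19, 5366741 to 5371526, plus strand), a protein related in sequence to eIF1A, had 4466 and 4934 scaled counts in MYC-PyMT, against 1272 and 1089 in Control-PyMT (limma log2 change 2.00, SE 0.19, adjusted p = 4.47e-05). Its span overlaps Banf1 on the other strand, and the strand setting of the count is not given in the sources used here. Eif6, which keeps the ribosomal subunits apart and is needed for making the large one, had 5341 and 7444 scaled counts in MYC-PyMT, against 2331 and 2270.4 in Control-PyMT (log2 change 1.45, SE 0.21, adjusted p = 0.000388). Eif1a, which works beside eIF1 in scanning, had 12558 and 14619 scaled counts in MYC-PyMT, against 6704 and 4534 in Control-PyMT (log2 change 1.30, SE 0.22, adjusted p = 0.00123). For these genes the groups stood well apart in every library.

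The other scanning factors had smaller fitted changes. Eif1 had 12082 and 15316 scaled counts in MYC-PyMT, against 7508 and 6296 in Control-PyMT (log2 change 0.98, SE 0.20, adjusted p = 0.00323) and Eif1ax had 10058 and 11730.1 scaled counts in MYC-PyMT, against 7483 and 5104 in Control-PyMT (log2 change 0.81, SE 0.22, adjusted p = 0.0134). Eif1 did not pass with Control-PyMT replicate 2 omitted (log2 0.86, adjusted p = 0.0514), nor did Eif1ax with Control-PyMT replicate 2 (0.54, adjusted p = 0.0850) or MYC-PyMT replicate 2 omitted (0.70, adjusted p = 0.0846). Eif1b, a close copy of eIF1, had 1288 and 1534 scaled counts in MYC-PyMT, against 1050.2 and 868 in Control-PyMT (log2 change 0.56, SE 0.21, adjusted p = 0.0474). It passed narrowly, and lost the call whichever library was omitted (0.42 to 0.69), by edgeR's quasi-likelihood test (0.53, adjusted p = 0.0514), with no level filter (0.56, adjusted p = 0.0543), with upper-quartile scaling (0.45, adjusted p = 0.0906) and with the length trend removed (0.13, adjusted p = 0.614).

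The eIF2 subunits, which carry the initiator tRNA, rose together. Eif2s1, the alpha subunit that the stress kinases phosphorylate, had 8850.0 and 9567 scaled counts in MYC-PyMT, against 5535 and 3926 in Control-PyMT (log2 change 0.98, SE 0.21, adjusted p = 0.00387). Eif2s2, the beta subunit, had 8799 and 9817 scaled counts in MYC-PyMT, against 4791 and 3494 in Control-PyMT (log2 change 1.18, SE 0.21, adjusted p = 0.00128). Eif2s3x, the X-linked gene of the gamma subunit, had 3394 and 3243 scaled counts in MYC-PyMT, against 2357 and 1697 in Control-PyMT (log2 change 0.73, SE 0.21, adjusted p = 0.0157). In all 3 genes Control-PyMT replicate 2 was the lowest library. The call of Eif2s3x was lost with Control-PyMT replicate 2 omitted (log2 0.49, adjusted p = 0.0677) and with either MYC-PyMT library omitted (0.49 to 0.97 over all omissions). Eif5, which makes eIF2 hydrolyse its GTP, rose by 0.68 (adjusted p = 0.0285), a call lost without the same libraries (0.43 to 0.93). Eif2a, a separate protein that can deliver initiator tRNA, rose by 1.04 (adjusted p = 0.00194). Eif5b, which joins the subunits, and Eif2d, which delivers tRNA without GTP, did not pass, with log2 changes of 0.22 and 0.16 (adjusted p = 0.347 and 0.486). With the length trend removed Eif5b passed (log2 0.62, adjusted p = 0.0215).

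Each of the 5 eIF2B genes rose, with a median log2 change of 1.15. The gamma and epsilon subunits, which form the catalytic pair, had the largest fitted changes. Eif2b3 (ENSMUSG00000028683.14, chromosome 4, 117019402 to 117087306, plus strand), the gamma subunit, had 2634 and 2702 scaled counts in MYC-PyMT, against 782 and 669 in Control-PyMT (limma log2 change 1.88, SE 0.19, adjusted p = 6.62e-05). Eif2b5, the epsilon subunit that exchanges the nucleotide, had 7849 and 7733 scaled counts in MYC-PyMT, against 3549 and 2723 in Control-PyMT (log2 change 1.33, SE 0.19, adjusted p = 0.000486). The regulatory subunits, which sense phosphorylated eIF2, changed by 1.15 for Eif2b1, 0.64 for Eif2b2 and 0.55 for Eif2b4, with standard errors of 0.20, 0.19 and 0.18. The call of Eif2b4, at 2412 and 2286 scaled counts in MYC-PyMT, against 1534 and 1669 in Control-PyMT, was lost with MYC-PyMT replicate 1 omitted (log2 0.51, adjusted p = 0.206), MYC-PyMT replicate 2 (0.59, adjusted p = 0.148) or Control-PyMT replicate 1 omitted (0.49, adjusted p = 0.0693), and with upper-quartile scaling (0.45, adjusted p = 0.0616). That of Eif2b2 ended without either control library or MYC-PyMT replicate 2 (0.52 to 0.77 over the omissions) and with the length trend removed (0.42, adjusted p = 0.0846).

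No eIF2 alpha kinase rose. Eif2ak2 (ENSMUSG00000024079.4, chromosome 17, 78852564 to 78882573, minus strand), PKR, an interferon-induced kinase that double-stranded RNA activates, had 1439 and 1590.2 scaled counts in MYC-PyMT, against 3782 and 3165 in Control-PyMT (limma log2 change -1.19, SE 0.19, adjusted p = 0.000757). It had the lowest change of any member, and the call held whichever library was left out. All 10 listed interferon response genes fell as well, with sums of 4259 and 5309 scaled counts in MYC-PyMT, against 28975 and 27847 in Control-PyMT. Their part in the fall of Eif2ak2 was not tested. The promoter window of Eif2ak2 is printed because it holds the core of the interferon-stimulated response element (in capitals), searched on both strands as GAAA, any 2 bases and GAAA again.
Eif2ak2, chr17:78882523-78882822 on the minus strand: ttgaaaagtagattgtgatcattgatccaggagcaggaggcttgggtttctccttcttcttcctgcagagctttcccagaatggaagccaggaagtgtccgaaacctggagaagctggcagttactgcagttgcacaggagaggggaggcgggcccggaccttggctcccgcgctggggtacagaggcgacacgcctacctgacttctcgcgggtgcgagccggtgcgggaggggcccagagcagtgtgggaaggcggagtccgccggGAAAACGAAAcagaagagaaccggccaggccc
The match begins at base 19 after the annotated start. The same letters were found for 3.80% of the tested genes with a window, and for 3 members that rose, Eif2s1, Eif2s3x and Eif3a.

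The other kinases did not pass. Eif2ak4, GCN2, which uncharged tRNA activates, had 856 and 781 scaled counts in MYC-PyMT, against 1034 and 994 in Control-PyMT (log2 change -0.31, SE 0.20, adjusted p = 0.220). Eif2ak3, PERK, the kinase of the endoplasmic reticulum, had 1988 and 1452 scaled counts in MYC-PyMT, against 1410.3 and 1644 in Control-PyMT (log2 change 0.16, SE 0.21, adjusted p = 0.569). Eif2ak1, the heme-regulated kinase, had 2221 and 1802 scaled counts in MYC-PyMT, against 1682 and 1616 in Control-PyMT (log2 change 0.28, SE 0.19, adjusted p = 0.258). The groups overlapped for Eif2ak3 alone of these 3, and the change of Eif2ak4 turned positive with the length trend removed (0.059, adjusted p = 0.822). The 4 kinases summed to 6504 and 5625 scaled counts in MYC-PyMT, against 7909 and 7418 in Control-PyMT.

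Of 9 elongation factor genes, 6 rose, none fell and 3 did not pass, with a median log2 change of 1.17. Eif5a (ENSMUSG00000078812.10, chromosome 11, 69916714 to 69921958, minus strand), whose product must carry the modified lysine hypusine to work, had 93077 and 111459 scaled counts in MYC-PyMT, against 28388 and 24371 in Control-PyMT (limma log2 change 1.95, SE 0.23, adjusted p = 0.000143). Its relative Eif5a2 had 207 and 219.8 scaled counts in MYC-PyMT, against 366 and 268 in Control-PyMT (log2 change -0.55, SE 0.27, adjusted p = 0.114). The groups did not overlap for either gene, in opposite directions, and the change of Eif5a2 did not pass.

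The exchange complex that reloads eEF1A rose in every part. Eef1b2 had 78617 and 80112 scaled counts in MYC-PyMT, against 29736 and 21751 in Control-PyMT (log2 change 1.64, SE 0.23, adjusted p = 0.000411), Eef1g rose by 1.33 (adjusted p = 0.000791) and Eef1d by 1.17 (adjusted p = 0.000774). Eef1e1, better known as a component of the multi-tRNA synthetase complex, had 4166 and 4787 scaled counts in MYC-PyMT, against 1704 and 1075 in Control-PyMT (log2 change 1.72, SE 0.24, adjusted p = 0.000329). All these calls held with any 1 library left out. Eef1b2 overlaps Ndufs1 on the other strand in the annotation.

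The GTPases that act at every elongation cycle were the most abundant members per kb of exon in Control-PyMT. Eef1a1 (ENSMUSG00000037742.14, chromosome 9, 78478449 to 78489151, minus strand) had 551488 and 424894 scaled counts in MYC-PyMT, against 339525 and 244861 in Control-PyMT (log2 change 0.75, SE 0.33, adjusted p = 0.0908). The groups did not overlap, but each pair of replicates differed widely and the change did not pass by limma, while it passed by edgeR's quasi-likelihood test (log2 0.71, adjusted p = 0.0487) and by DESeq2 (0.75, adjusted p = 0.00456). Eef1a1 has many processed copies in the genome, so its level is uncertain. Eef2 had 145132 and 119386 scaled counts in MYC-PyMT, against 67949 and 87616 in Control-PyMT (log2 change 0.77, SE 0.26, adjusted p = 0.0345), and its call ended whichever library was omitted (log2 0.59 to 0.95) and with upper-quartile scaling (0.67, adjusted p = 0.0541). Per kb of exon Eef1a1 averaged 272124 scaled counts in MYC-PyMT and 162872 in Control-PyMT, and was the highest member in both groups. Next in MYC-PyMT came Eif5a at 43024 and Eef2 at 42816, whereas in Control-PyMT Eif5a, at 11098, stood below Eef2, at 25180.5. In Control-PyMT, Eif4a1 at 13478 and Eef1b2 at 13276 also stood above Eif5a.

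Eef1a2, the form of eEF1A found in muscle and neurons, was low, at 12.1 and 33.0 scaled counts in MYC-PyMT, against 4.68 and 17.0 in Control-PyMT (log2 change 1.06, SE 0.67, adjusted p = 0.217). The groups overlapped, with replicate 2 above replicate 1 in each, and the gene passed with MYC-PyMT replicate 1 omitted (log2 1.75, adjusted p = 0.0218). Striated muscle markers showed the same order, with sums of 2002 and 3556 scaled counts in MYC-PyMT, against 768 and 1916 in Control-PyMT, 4 of 10 called higher and none at 0. Of 5 neuron and neuroendocrine markers tested, 2 fell, none rose and 3 did not pass. The list summed to 187 and 238 scaled counts in MYC-PyMT, against 1402 and 1694 in Control-PyMT. Most of these sums was Ncam1 alone, at 109 and 154 scaled counts in MYC-PyMT, against 1300 and 1599 in Control-PyMT. Snap25 was at 0 in MYC-PyMT replicate 1, and Chga and Chgb at 0 in Control-PyMT replicate 2. The part of these cell types in the level of Eef1a2 was not tested.

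Enzymes that modify elongation factors split. Eef2kmt, which methylates eEF2, had 2519.9 and 2421 scaled counts in MYC-PyMT, against 1188 and 1108 in Control-PyMT (log2 change 1.11, SE 0.18, adjusted p = 0.000949). Its span overlaps Alg1 on the other strand. Eef2k, the kinase that inactivates eEF2, had 2706 and 2131 scaled counts in MYC-PyMT, against 1142 and 1990.1 in Control-PyMT (log2 change 0.67, SE 0.27, adjusted p = 0.0615). Eef2k did not pass, but did with Control-PyMT replicate 2 omitted (log2 1.07, adjusted p = 0.0351), with MYC-PyMT replicate 2 omitted (0.84, adjusted p = 0.0297) and with the length trend removed (1.02, adjusted p = 0.00951). Both termination factors rose. Etf1, which reads stop codons, had 17431 and 18701 scaled counts in MYC-PyMT, against 10065 and 7308 in Control-PyMT (log2 change 1.07, SE 0.21, adjusted p = 0.00248), and its GTPase partner Gspt1 had 14197 and 13146 scaled counts in MYC-PyMT, against 7658 and 6267 in Control-PyMT (log2 change 0.98, SE 0.19, adjusted p = 0.00246). The MYC-PyMT libraries of each lay above both controls, and the calls held whichever library was left out.

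The 5 pseudogene entries were low apart from Eif4a-ps4, which had 1758 and 1975 scaled counts in MYC-PyMT, against 959.5 and 713 in Control-PyMT (log2 change 1.17, SE 0.21, adjusted p = 0.00162). Eif5al3-ps had 82.5 and 107 scaled counts in MYC-PyMT, against 20.6 and 18.7 in Control-PyMT (log2 change 2.20, SE 0.37, adjusted p = 0.00103), and Eif3s6-ps1 rose by 1.46 (adjusted p = 0.0252). Reads of such copies may come from their parent genes, so these values are uncertain. The call of Eif3s6-ps1 was lost without either control library, without MYC-PyMT replicate 1 (0.98 to 1.95 over the omissions), by DESeq2 (1.61, adjusted p = 0.0727) and with the length trend removed (0.71, adjusted p = 0.241). Eif3s6-ps2 did not pass (0.47, adjusted p = 0.395), and Eif3s6-ps4 was too low to be tested, at 3.02 and 4.40 scaled counts in MYC-PyMT, against 0 and 2.55 in Control-PyMT.

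Translation genes outside these families rose in part. Of 54 listed regulators and accessory factors, all tested, 26 rose, 3 fell and 25 did not pass, with a median log2 change of 0.55, where 23.3% of all genes tested rose and 24.6% fell. Without MYC-PyMT replicate 2, 16 rose. Enzymes that modify eIF5A and eEF2 rose in 7 of 9 cases. Dohh, the hydroxylase that completes hypusine, had 1937 and 2517 scaled counts in MYC-PyMT, against 734 and 1209 in Control-PyMT (log2 change 1.23, SE 0.26, adjusted p = 0.00363), and Dhps, which begins it, had 1083 and 1174 scaled counts in MYC-PyMT, against 656 and 519.8 in Control-PyMT (log2 change 0.95, SE 0.21, adjusted p = 0.00499). Both stood above the controls in each MYC-PyMT library, as did Eif5a, which they act on. Of the enzymes for diphthamide, the modified histidine of eEF2, Dph2 rose by 1.52 and Dph6 by 1.11 (adjusted p = 0.000373 and 0.00159).

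Genes that regulate eIF2 phosphorylation or respond to it rose in 4 of 7 cases and fell in 1, where 23.3% of all genes tested rose and 24.6% fell. Atf4, the transcription factor whose translation rises when eIF2 is phosphorylated, had 14475 and 21495 scaled counts in MYC-PyMT, against 7555 and 6733 in Control-PyMT (log2 change 1.31, SE 0.23, adjusted p = 0.00120). Impact, an inhibitor of GCN2, had 1292 and 1642 scaled counts in MYC-PyMT, against 889 and 753 in Control-PyMT (log2 change 0.83, SE 0.21, adjusted p = 0.00954). Nck1, an adaptor that reduces eIF2 phosphorylation, had 1382 and 1648 scaled counts in MYC-PyMT, against 3269 and 2705 in Control-PyMT (log2 change -0.98, SE 0.20, adjusted p = 0.00281). The groups did not overlap for these 3 genes. Of the rest of the list, Ppp1r15a and Gcn1l1 rose by 0.70 and 0.85 (limma adjusted p = 0.0304 and 0.0341). Ppp1r15b and Ddit3 did not pass, with log2 changes of 0.32 and 0.30 (limma adjusted p = 0.181 and 0.404), and the groups overlapped for Ddit3.

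In the mTORC1 group, whose kinase phosphorylates the Eif4ebp1 product and S6 kinase, 4 of 13 genes rose and 2 fell, shares near those over all genes tested (23.3% and 24.6%). Larp1, which binds messages with pyrimidine-rich starts, had 9550.4 and 8622 scaled counts in MYC-PyMT, against 3126 and 4158 in Control-PyMT (log2 change 1.33, SE 0.20, adjusted p = 0.000563), and Rps6kb1, the S6 kinase gene, had 6334 and 6241 scaled counts in MYC-PyMT, against 3940.0 and 3313 in Control-PyMT (log2 change 0.80, SE 0.18, adjusted p = 0.00565). Deptor, an inhibitor of mTOR, had 5981 and 3079 scaled counts in MYC-PyMT, against 10646 and 12517 in Control-PyMT (log2 change -1.43, SE 0.28, adjusted p = 0.00264), and Tsc1, a brake on mTORC1, fell by 0.82 on the log2 scale (adjusted p = 0.00746). Those falls were not shared by Akt1s1 of the same list, which rose by 0.98 (adjusted p = 0.00604), or by Tsc2, which did not pass (-0.21, adjusted p = 0.565). The kinase gene Mtor itself did not pass (0.31, adjusted p = 0.218).

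Accessory factors rose in 6 of 15 cases and 9 did not pass, where 23.3% of all genes tested rose. The groups did not overlap, with MYC-PyMT higher for 8 of the 15 and lower for 4, against 37.0% and 38.7% of all genes tested. Pabpc4, a relative of Pabpc1, had 5476 and 5742 scaled counts in MYC-PyMT, against 1267 and 1357 in Control-PyMT (log2 change 2.10, SE 0.18, adjusted p = 2.70e-05), and Denr, which helps recycle small subunits, rose by 1.20 (adjusted p = 0.000838). Mitochondrial translation factors rose in 5 of 10 cases and 5 did not pass, again beside 23.3% of all genes tested that rose. Their largest fitted rises were those of Tsfm, an exchange factor, at 1.55, and Gfm1, an elongation GTPase, at 1.21 (limma adjusted p = 0.000255 and 0.000601). No gene of the accessory or mitochondrial list fell past the threshold.

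**Figure D4:**
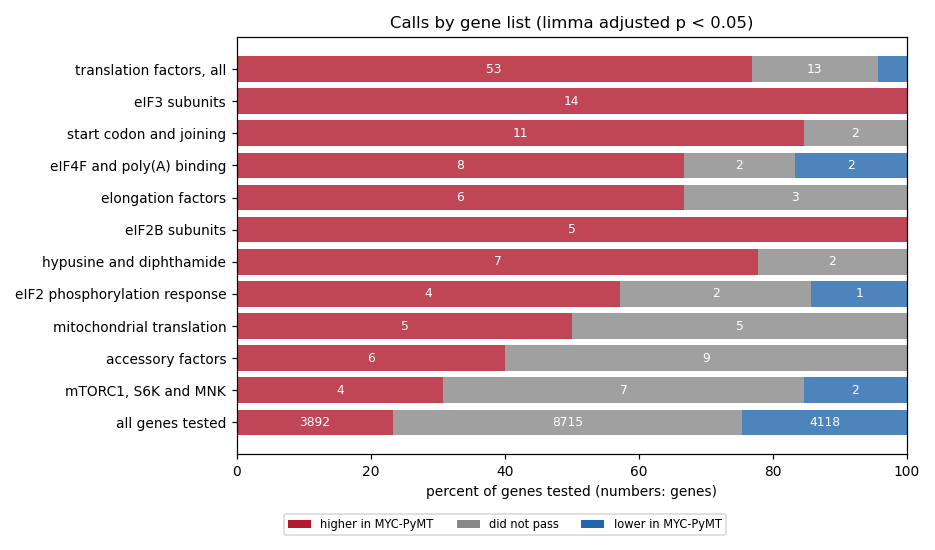
Percent of tested genes (x axis; numbers are genes) called higher (red), not called (grey) or lower (blue) in MYC-PyMT by limma, for the members, 5 of their roles, 5 lists of other translation genes and all genes tested. Higher calls make up 53 of 69 members and 3892 of 16725 genes.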

How the data were processed

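Bulk tumour RNA was extracted with TRIZOL, selected for poly(A) and made into TruSeq stranded libraries, with RNA integrity numbers from 3.3 to 9.6 that are not tied to samples, per the labels' protocols. Reads were aligned with HISAT2 to mm10 (GRCm38.p5) and DESeq2 was used, per the submitters' processing notes. For the counter, its strand setting and its annotation, nothing is given in the sources used here. The deposited values are a signal, scaled counts per gene, in which 100% of values per library were whole multiples of what 1 read is worth (tolerance 0.001 reads), so whole reads were recovered for the count tests. The main test was limma 3.58.1 (lmFit, eBayes with trend) on log2(scaled count + 1), two-sided, over genes with at least 10 in at least 2 libraries, with p-values adjusted by Benjamini-Hochberg over 16725 genes and called under 0.05. Fold changes on that scale understate those of low genes. Replicates differed by more than counting noise (chi-square per degree of freedom 41.2 in MYC-PyMT and 59.3 in Control-PyMT). Positions and exon lengths came from GENCODE M21 (GRCm38), which matched 20463 gene IDs, and promoter windows from RefSeq (GRCm38.p6). Members without a promoter window were Eef1d, Eef1g, Eif1a, Eif2b3, Eif3e, Eif3h, Eif3i, Eif3j2, Eif3s6-ps1, Eif3s6-ps2, Eif3s6-ps4, Eif4a-ps4, Eif4e3, Eif4ebp1, Eif4ebp3, Eif4g2, Eif5al3-ps, Eif6, Etf1, Pabpc1. The members and lists were chosen with earlier results of these data known, so counts over them are descriptions. Members given with values were, in each role, the 3 with the smallest p, that with the lowest change and every member of a related pair, and of each pathway list the 2 with the smallest p in each direction; other genes given with values were chosen after those were seen. Alternatives were pseudocounts of 0.5 and 5, level filters of none and 50, TMM and upper-quartile scaling, a replicate block, each library left out, edgeR 4.0.16 and DESeq2 1.42.0 on reads, and removal of each library's trend with exon length by lowess.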

Additional observations from a re-analysis of the deposited data

How the results depend on the processing

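No member that passed the test changed sign under any of the 14 alternatives. Of the 53 members that rose, 33 kept the call under all of them, and of the 3 that fell Eif2ak2 did. The number of members that rose was 48 with upper-quartile scaling, 52 with the length trend removed, 53 by edgeR and 53 by DESeq2. With the replicate number as a block 50 rose: Eif3c (adjusted p = 0.0554), Eif4enif1 (0.0502), Eif2b4 (0.0561) and Eif1b (0.0650) no longer passed and Eef2k did (0.0236). Same-numbered libraries did not deviate together (correlation of deviations -0.089), so they share only a number. Leaving out 1 library gave 5236 to 6480.0 changed genes in place of 8010, 2573 to 3433 lower genes in place of 4118, and 16 to 20 other translation genes that rose in place of 26. The median change of all genes tested shifted to -0.12 with upper-quartile scaling, where the members' median was 0.87. Among members that did not pass, the change of Eif4a2 was -0.066 with upper-quartile scaling and -0.093 to 0.17 over omissions, that of Eif2ak4 was 0.059 with the length trend removed, and those of Eif4ebp2 and Eif2ak3 ran from -0.031 to 0.75 and -0.069 to 0.38 over omissions. The cause was not tested. With a single library left in a group, its spread was assumed to be that of the other group. Precision is limited by 2 libraries a group.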
